A study of Mus musculus with 14 samples.

Results

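The 35 genes described here are expressed by cells of the oligodendrocyte lineage, from precursor to myelinating cell. They were chosen by name as a list, with earlier results of these data known. All 35 were found once in a table of 36118 genes measured by RNA-seq in the hippocampus of 15-day-old mice. All 35 were among the 16637 genes with enough reads to be tested. Newborn mice with a global knockout of Gsdmd, the gene of the pore-forming protein gasdermin D, and wild-type (WT) mice, which the study calls littermates, breathed room air (RA) or 85% O2 (hyperoxia) from postnatal day 1 to 14, and the tissue was taken on day 15. The 14 libraries, each from 1 mouse, formed 4 groups: WT in room air (WT-RA, 4 mice), WT in hyperoxia (WT-O2, 4), GSDMD-KO in room air (KO-RA, 3) and GSDMD-KO in hyperoxia (KO-O2, 3). The breed of all mice was given as C57/BL6 in the labels, where the study's methods name C57BL/6N for the knockout, and the knockout was carried in every cell of the body rather than in oligodendrocytes alone. Mouse GSD408 was placed in WT-O2 by its title and column name, while its treatment field read room air. Mouse numbers ran from 398 to 408 in WT and from 489 to 496 in KO. Genotype and whatever goes with these ranges (the litter of each mouse and its time of birth are not given) therefore cannot be told apart.

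Oligodendrocyte precursors divide, leave the cell cycle as newly formed oligodendrocytes and then wrap axons in myelin, a stack of membrane rich in galactolipid and cholesterol and in a small set of proteins. Precursors carry the growth factor receptor PDGFRA, newly formed cells switch on genes such as Gpr17 and Enpp6, and myelinating cells express the myelin proteins at very high levels. In mice the hippocampus is being myelinated during the postnatal weeks studied here, later than several neighbouring regions. Because whole tissue was sequenced, fewer cells of the lineage and less RNA per cell cannot be told apart in any value below.

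Estimated read counts summed to between 27272270 and 28257496 per library, and levels are given as counts per 1000000 reads (CPM) after TMM scaling. Within a group the mice are listed in the order GSD398, GSD399, GSD400, GSD401 for WT-RA, GSD404, GSD405, GSD406, GSD408 for WT-O2, GSD489, GSD490, GSD496 for KO-RA and GSD491, GSD494, GSD495 for KO-O2. The targeted gene, Gsdmd, had 41 to 63 reads in the 8 WT libraries and 22 to 42 in the 6 KO libraries, so the ranges touched, and a count over the whole gene does not test the deleted stretch. A gene was called when the higher group was at least 25% above the lower, its p below 0.05 and its Benjamini-Hochberg q over all tested genes below 0.1, by the quasi-likelihood test of edgeR.

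Under room air, 29 of the 35 genes were lower in KO than in WT and none was higher. The largest falls (log2 fold change) were in Hapln2 (-2.47, with 19 reads in its lowest library), Mal (-2.18), Gjb1 (-2.10), Mog (-1.93), Trf (-1.91) and Nkx6-2 (-1.89). Pdgfra and Cspg4, which mark precursors, did not pass the test. Over all genes tested, 10.4% were called in this comparison and 6.7% were called lower. In 28 of the 35 genes every KO-RA library was below every WT-RA library, against 11% of all genes tested. The median log2 fold change of the 35 genes was -1.53, and that of all tested genes was -0.007. Leaving out each library in turn gave 24 to 30 called genes, with 24 of the 29 called every time.

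Under hyperoxia the same direction was seen with smaller differences. Against WT-O2, 12 of the 35 genes were lower in KO-O2 and none was higher: Mbp, Mog, Mag, Cldn11, Ugt8a, Gjb1, Ermn, Tspan2, Fa2h, Nkx6-2, Trf and Plekhh1. All genes tested were called at 6.86% here, and 4.35% were called lower. Only 4 of the 35 genes (Gjb1, Plekhh1, Aspa and Olig2) had every KO-O2 library below every WT-O2 library, a share near the 10.5% of all genes. The count of 12 rested on few libraries: it was 0 without WT-O2 mouse GSD408 and 0 without KO-O2 mouse GSD494 or GSD495, 3 without GSD406, 6 without GSD405, 7 without GSD399 or GSD496, 20 without GSD400 and 26 without GSD404. It was also 0 with GSD408 counted as WT-RA, as its treatment field reads, where the room air count was 29. With scores from markers of neighbouring brain regions as covariates, a fit chosen after seeing the data and described with those markers below, no member was called for genotype under either exposure.

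**Figure D1:**
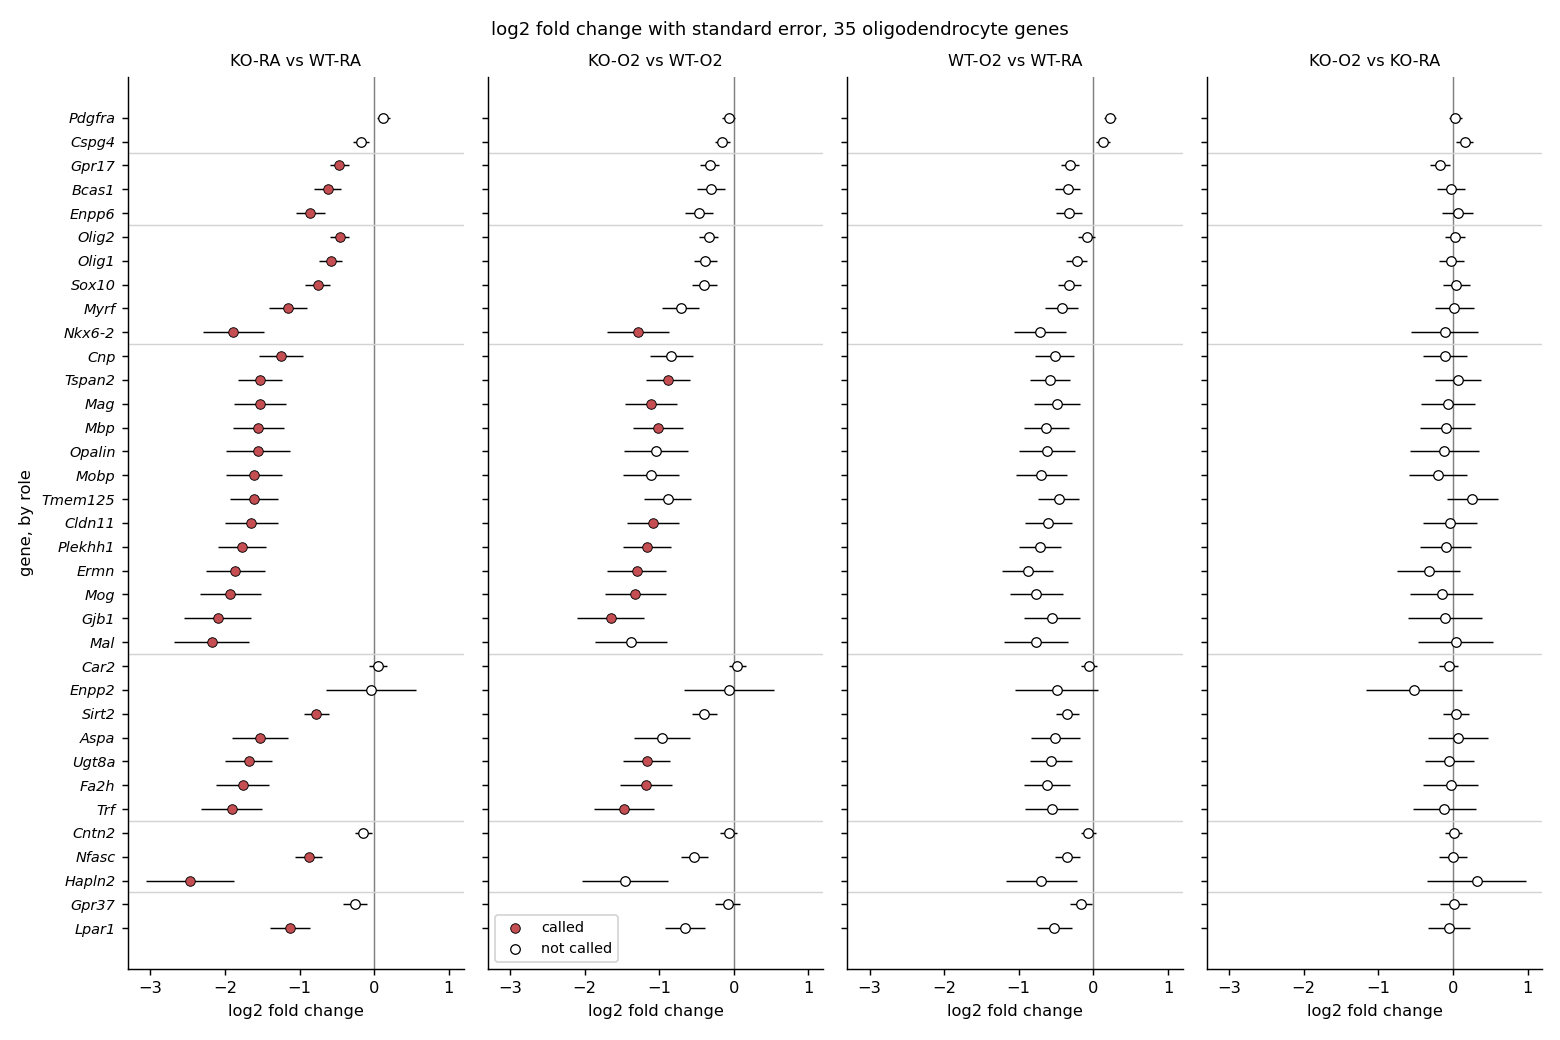
log2 fold change (x axis, with its standard error as a bar) of the 35 genes (y axis, grouped by role) in the 4 pairwise comparisons; filled points were called and open points were not. Filled points stand to the left of 0 in the 2 KO against WT panels (29 and 12 of 35), and the 2 hyperoxia against room air panels hold none.

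Between genotypes, genes of mature cells differed by more than genes of earlier cells. Of the 5 precursor and newly formed genes, 3 were called lower in KO-RA than in WT-RA, and the median of the 5 was -0.47 (log2). Of the 20 mature genes, 18 were called lower, and the median of the 20 was -1.63. Over all genes tested, 6.7% were called lower there. Under hyperoxia 0 of the 5 early genes were called lower, with a median of -0.31, and 11 of the 20 mature genes, with a median of -1.11. Over all genes tested, 4.35% were called lower there. For the 5 early genes 2 had an unadjusted p below 0.05 by edgeR, and DESeq2 also called 0. None of the 11 was called without GSD408, GSD494 or GSD495, or with GSD408 counted as WT-RA. Leaving out 1 library moved the mature median in hyperoxia to between -1.42 and -0.82. Car2 and Gpr37 were the 2 mature genes not called in room air. The mature list held the 13 genes of myelin and oligodendrocyte membrane proteins with Ugt8a, Fa2h, Aspa, Trf, Car2, Hapln2 and Gpr37. In neither list were the transcription factors, Enpp2, Sirt2, Nfasc, Cntn2 and Lpar1. Their log2 fold changes in room air ran from -1.89 (Nkx6-2) to -0.04 (Enpp2). The early median in hyperoxia was -0.16 without WT-O2 mouse GSD408 and -0.46 without KO-O2 mouse GSD491. The 2 lists were not tested against each other.

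Summed over the 20 mature genes, the level was 16223, 10344, 6682 and 14291 CPM in WT-RA, 4237, 6724, 8810.3 and 11173 in WT-O2, 2974, 4567 and 4723 in KO-RA and 5133, 2978 and 3373 in KO-O2. Every WT-RA library lay above every KO library, whereas WT-O2 mouse GSD404 lay below KO-RA mice GSD490 and GSD496 and KO-O2 mouse GSD491. The 5 precursor and newly formed genes summed to 1039, 868, 687 and 955 CPM in WT-RA, 639, 741, 766 and 876 in WT-O2, 581, 684 and 681 in KO-RA and 714, 578 and 578 in KO-O2. Mature over early, the ratio of these sums was 13.1 ± 2.75 (SD, n = 4) in WT-RA, 10 ± 2.73 (n = 4) in WT-O2, 6.24 ± 0.981 (n = 3) in KO-RA and 6.06 ± 1.03 (n = 3) in KO-O2. In WT-RA it ran from 9.73 to 15.6 and in the KO groups from 5.12 to 7.19, with WT-O2 spread between 6.63 and 12.8. All 35 genes together took 0.943 to 2.09% of the reads in WT-RA and 0.478 to 0.783% in the KO libraries. Since Mbp supplied most of the mature sum, these sums follow Mbp closely.

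**Figure D2:**
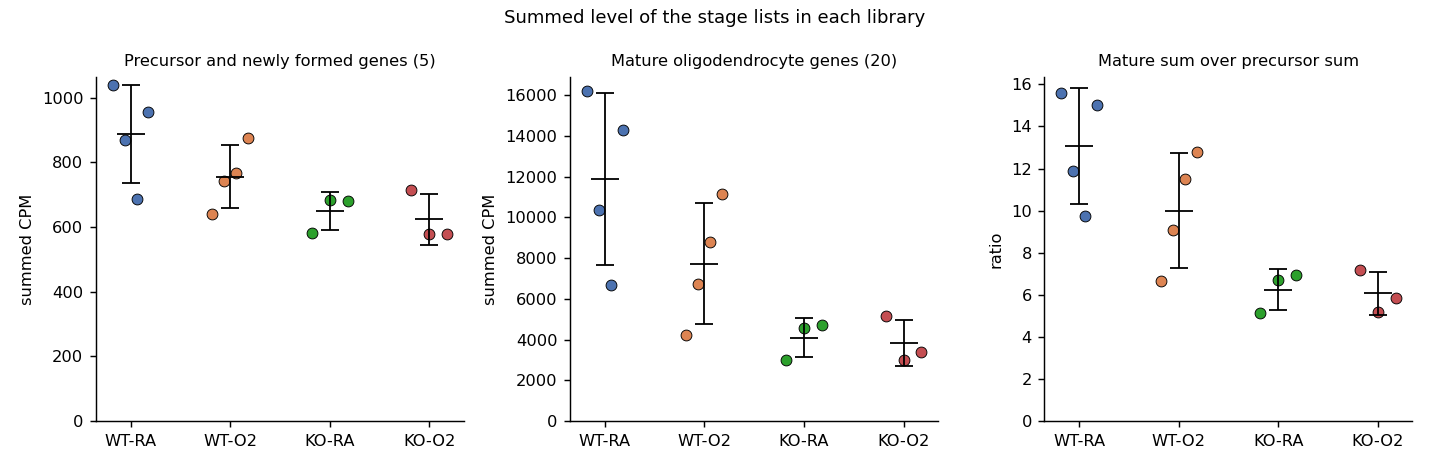
Summed CPM (y axis) of the 5 precursor and newly formed genes and of the 20 mature genes, and the ratio of the sums, in each library by group (x axis); the points are libraries, and the bars give mean and SD. KO libraries stand at 5.12 to 7.19 on the ratio and WT-RA libraries at 9.73 to 15.6.

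Among precursor genes, Pdgfra, the receptor for platelet-derived growth factor that keeps precursors dividing, had 105, 97.8, 81.8 and 105 CPM in WT-RA and 109, 115, 112 and 117 in WT-O2. In KO mice Pdgfra was at 97.1, 108 and 113 in KO-RA and 107, 102 and 116 in KO-O2. The groups overlapped except that every WT-O2 library was above every WT-RA library, by a log2 fold change of 0.22 ± 0.08 (SE, q = 0.241) that was not called. KO against WT gave 0.12 ± 0.08 (SE, q = 0.415) in room air. Cspg4, the NG2 proteoglycan on the precursor surface, had 51.9, 44.5, 37.9 and 42.5 CPM in WT-RA and 42.5, 50.5, 45.2 and 55.4 in WT-O2. In KO mice Cspg4 was at 38.4, 40.5 and 38.2 in KO-RA and 39.7, 47 and 44.1 in KO-O2. Its groups overlapped, with -0.18 ± 0.10 (SE, q = 0.333) for KO-RA against WT-RA and -0.15 ± 0.10 (SE, q = 0.486) for KO-O2 against WT-O2. Over the 4 pairwise comparisons the log2 fold changes of the 2 genes stayed between -0.18 and 0.22, and none was called. Other cells of the tissue were sequenced too, and their part in these 2 levels was not tested.

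Newly formed cells are marked by Gpr17, a G protein-coupled receptor of committed precursors, with 449, 379, 296 and 391 CPM in WT-RA and 269.6, 302, 307 and 337 in WT-O2. In KO mice Gpr17 was at 252, 281 and 288 in KO-RA and 291, 226 and 211 in KO-O2. All KO-RA libraries were below all WT-RA libraries, a log2 fold change of -0.47 ± 0.13 (SE, q = 0.0354). Enpp6, a choline phosphodiesterase of cells that are starting to myelinate, had 107, 74.2, 65.3 and 92.3 CPM in WT-RA and 49.8, 65.2, 70.1 and 84 in WT-O2. In KO mice Enpp6 was at 38.6, 52.3 and 49.1 in KO-RA and 59.4, 43.4 and 43.4 in KO-O2. In room air Enpp6 fell by 0.86 ± 0.19 (log2, SE, q = 0.0105). Bcas1, expressed in early myelinating cells, had 327, 272, 205 and 325 CPM in WT-RA and 168, 208, 231 and 282 in WT-O2. In KO mice Bcas1 was at 155, 202 and 193 in KO-RA and 217, 159 and 164 in KO-O2. Bcas1 fell by 0.62 ± 0.18 (log2, SE, q = 0.044) in room air, where neither gene's groups overlapped. Under hyperoxia the 3 genes gave -0.32, -0.46 and -0.30 in turn, and none was called.

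All 5 transcription factors were lower in KO-RA. Olig1, a basic helix-loop-helix factor of the whole lineage, had 343, 259, 210 and 303 CPM in WT-RA and 189, 228, 248 and 291 in WT-O2. In KO mice Olig1 was at 168, 199.9 and 189.6 in KO-RA and 205, 166 and 179 in KO-O2, which in room air is a log2 fold change of -0.59 ± 0.16 (SE, q = 0.0282). Its partner Olig2, needed to specify the lineage, had 80.9, 63.7, 51 and 77 CPM in WT-RA and 55.7, 67.7, 63.7 and 68.8 in WT-O2. In KO mice Olig2 was at 47, 50.9 and 50.4 in KO-RA and 54.1, 50.7 and 46.8 in KO-O2, or -0.46 ± 0.13 (SE, q = 0.0322). Sox10, which is present from precursor to mature cell, had 149.5, 115, 85.4 and 133 CPM in WT-RA and 73.8, 95.4, 104 and 113 in WT-O2. In KO mice Sox10 was at 62.7, 77.8 and 73.3 in KO-RA and 84.9, 69.1 and 66.7 in KO-O2, or -0.76 ± 0.17 (SE, q = 0.0118). In these 3 genes the room air groups did not overlap, and the KO libraries varied by at most 1.27 times within a group. Myrf, the membrane-bound factor that turns on myelin genes, changed more: it had 200.3, 125, 104 and 145 CPM in WT-RA and 65, 98.2, 119 and 145 in WT-O2. In KO mice Myrf was at 54.6, 73.9 and 64.7 in KO-RA and 79.4, 56.9 and 59.1 in KO-O2. In room air Myrf fell by 1.16 ± 0.25 (log2, SE, q = 0.00898). Nkx6-2, a homeobox factor of maturing oligodendrocytes, changed most of the 5, with 13.3, 9.47, 6.57 and 14 CPM in WT-RA and 3.11, 6.17, 6.44 and 10.6 in WT-O2. In KO mice Nkx6-2 was at 2.04, 3.04 and 3.66 in KO-RA and 4.47, 1.91 and 1.73 in KO-O2. Its log2 fold change was -1.89 ± 0.41 (SE, q = 0.00919) in room air and -1.28 ± 0.41 (SE, q = 0.0881) in hyperoxia, where it was the 1 factor called.

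The bases just before the start of 4 members are shown. Mog, Mag and Cnp were picked because they were lower in KO-RA and each holds a short motif by which MYRF is described. Pdgfra was picked because it was not called in any pairwise comparison. With members picked in this way, the contrast between the 4 stretches is no test of the motifs. They are the 250 bases upstream of the RefSeq start in GRCm38.p6 (a different build from the one the reads were mapped to), 5′ to 3′ on the gene's strand, at chr17:37023399-37023648 on the minus strand for Mog, chr7:30914923-30915172 minus for Mag, chr11:100574689-100574938 plus for Cnp and chr5:75152001-75152250 plus for Pdgfra; capitals mark a match to a searched motif or its reverse complement.
Mog: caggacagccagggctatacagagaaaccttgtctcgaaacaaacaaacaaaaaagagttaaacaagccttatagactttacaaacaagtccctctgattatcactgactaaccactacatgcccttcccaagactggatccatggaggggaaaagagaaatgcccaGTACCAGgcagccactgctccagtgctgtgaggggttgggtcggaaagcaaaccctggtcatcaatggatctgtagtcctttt
Mag: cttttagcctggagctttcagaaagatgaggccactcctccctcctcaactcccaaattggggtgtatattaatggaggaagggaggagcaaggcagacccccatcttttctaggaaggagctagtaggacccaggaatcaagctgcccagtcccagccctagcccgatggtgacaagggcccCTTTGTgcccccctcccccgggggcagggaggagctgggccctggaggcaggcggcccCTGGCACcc
Cnp: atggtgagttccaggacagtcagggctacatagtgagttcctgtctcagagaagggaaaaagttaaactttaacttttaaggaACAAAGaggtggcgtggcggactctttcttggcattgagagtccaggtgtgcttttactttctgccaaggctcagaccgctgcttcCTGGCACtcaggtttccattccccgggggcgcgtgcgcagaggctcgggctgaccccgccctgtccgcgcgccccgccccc
Pdgfra: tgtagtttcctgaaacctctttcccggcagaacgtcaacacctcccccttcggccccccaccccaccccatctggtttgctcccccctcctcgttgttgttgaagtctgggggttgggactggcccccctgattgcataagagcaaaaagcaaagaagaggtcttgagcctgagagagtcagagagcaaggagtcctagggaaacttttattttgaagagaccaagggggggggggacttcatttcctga
Capitals start 83 bases before the start in Mog, 67 and 9 bases before it in Mag, and 167 and 81 bases before it in Cnp. On either strand, the MYRF motif CTGGCAC was found in 4 of the 25 members with a window (Cnp, Hapln2, Lpar1 and Mag) and in 4.16% of all 27026 windows, and CTGGTAC in 1 of 25 (Mog) and in 1.8% of all. Neither MYRF motif was in the windows of other members lower in KO-RA, such as Mal, Gjb1, Nkx6-2, Ermn, Plekhh1, Ugt8a and Cldn11. The same held for Tspan2, Tmem125, Mobp and Opalin. The SOX motifs ACAAAG and ACAATG were each in 5 of 25, against 16.5% and 10.9% of all windows, and the E-box CAGCTG was in 2 of 25, against 12.7%. A match is a string of letters and not a measured binding site, and no binding was measured here.

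All 13 genes of myelin and oligodendrocyte membrane proteins were lower in KO-RA than in WT-RA, at a median of -1.61 (log2) and no overlap in any of the 13. In hyperoxia all 13 had log2 fold changes below 0, and 8 of them were called lower in the KO mice. Mbp, whose basic protein holds the cytoplasmic faces of compact myelin together, had 9573, 6182, 4054 and 8851 CPM in WT-RA and 2535, 4102, 5309 and 6555 in WT-O2. In KO mice Mbp was at 1752, 2784 and 2793 in KO-RA and 3062, 1760.2 and 2040.3 in KO-O2. Its log2 fold change was -1.55 ± 0.34 (SE, q = 0.00904) in room air, a 2.93-fold lower level, and -1.02 ± 0.33 (SE, q = 0.09) in hyperoxia. Only WT-O2 mouse GSD404 fell within the KO range. Mog, a glycoprotein on the outer surface of the sheath, had 183, 113, 62.4 and 168 CPM in WT-RA and 37.7, 65.5, 92.7 and 114 in WT-O2. In KO mice Mog was at 22.9, 36.8 and 43.8 in KO-RA and 45.1, 23.5 and 24.6 in KO-O2. It was 3.81-fold lower in room air, -1.93 ± 0.41 (SE, q = 0.0082) on the log2 scale, and in hyperoxia it fell by 1.32 ± 0.40 (log2, SE, q = 0.0736). Mag, the adhesion protein of the innermost wrap that faces the axon, had 669.8, 396, 301 and 487 CPM in WT-RA and 169, 274, 366 and 514 in WT-O2. In KO mice Mag was at 112, 186 and 182 in KO-RA and 213, 125 and 121 in KO-O2. The difference was -1.53 ± 0.35 (SE, q = 0.0126) in room air and -1.11 ± 0.35 (SE, q = 0.0788) in hyperoxia.

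Mobp, a small basic protein of compact myelin, had 2103, 1309, 781 and 1706 CPM in WT-RA and 455, 732, 1050.3 and 1404 in WT-O2. In KO mice Mobp was at 332, 527 and 588 in KO-RA and 581, 323 and 358 in KO-O2. It fell by 1.61 ± 0.38 (log2, SE, q = 0.0146) in KO-RA, and its difference of -1.11 ± 0.37 (SE, q = 0.102) in hyperoxia just missed the threshold on q. Cnp, the cyclic nucleotide phosphodiesterase of non-compact myelin, had 1029.7, 681, 494 and 866 CPM in WT-RA and 324, 484, 576 and 763 in WT-O2. In KO mice Cnp was at 245, 357 and 367 in KO-RA and 401, 235 and 264 in KO-O2. It showed the smallest change of the 13 in room air, 2.38-fold lower (q = 0.0136), and was not called in hyperoxia, -0.84 ± 0.29 (SE, q = 0.11). Cldn11, the claudin of the tight junctions between myelin wraps, had 599, 353, 231 and 484 CPM in WT-RA and 144, 234, 312 and 409 in WT-O2. In KO mice Cldn11 was at 99.2, 144 and 155 in KO-RA and 178, 104 and 107 in KO-O2. The 2 exposures gave -1.65 ± 0.35 (SE, q = 0.00882) and -1.09 ± 0.35 (SE, q = 0.0874).

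Mal, a raft proteolipid that carries myelin proteins to the membrane, had 484, 299.8, 125 and 418 CPM in WT-RA and 79.9, 139, 250.1 and 311 in WT-O2. In KO mice Mal was at 46.2, 78.1 and 95.6 in KO-RA and 114, 52.3 and 58.8 in KO-O2. It had the largest change of the 13 in room air, -2.18 ± 0.50 (SE, q = 0.0128), yet missed the call in hyperoxia, -1.38 ± 0.49 (SE, q = 0.123), where the 4 WT-O2 libraries spread 3.89-fold. Gjb1, a connexin of oligodendrocyte gap junctions, had 18.2, 10.6, 5.48 and 16 CPM in WT-RA and 3.77, 6.31, 9.06 and 15 in WT-O2. In KO mice Gjb1 was at 2.27, 3.18 and 3.34 in KO-RA and 3.58, 2.38 and 2.18 in KO-O2. It was the member with the largest change in hyperoxia, -1.65 ± 0.45 (SE, q = 0.0458), and 1 of 4 with no overlap there. In room air Gjb1 gave -2.10 ± 0.45 (SE, q = 0.00861).

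Ermn, which encodes a cytoskeletal protein of late myelinating cells, had 79.8, 49, 27.3 and 68.7 CPM in WT-RA and 15.7, 25.2, 35.2 and 45.8 in WT-O2. In KO mice Ermn was at 10.4, 16.9 and 19 in KO-RA and 17.8, 9.39 and 9.83 in KO-O2. Ermn changed by -1.86 ± 0.39 (SE, q = 0.00811) in room air and -1.30 ± 0.40 (SE, q = 0.0718) in hyperoxia. Plekhh1, a pleckstrin homology domain protein enriched in myelinating cells, had 64.4, 44.2, 24.6 and 46 CPM in WT-RA and 16.8, 23.5, 29.4 and 39.5 in WT-O2. In KO mice Plekhh1 was at 9.4, 13.9 and 15.9 in KO-RA and 16.1, 9.98 and 10.6 in KO-O2. Its q was the smallest of the 35 genes in room air, -1.78 ± 0.32 (SE, q = 0.00338), and its groups did not overlap under either exposure. The remaining 3 genes of the group, Opalin, Tspan2 and Tmem125, gave log2 fold changes of -1.56, -1.53 and -1.61 in room air. Of these, Tspan2, a tetraspanin, was called in hyperoxia at -0.89 ± 0.29 (SE, q = 0.0991).

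**Figure D3:**
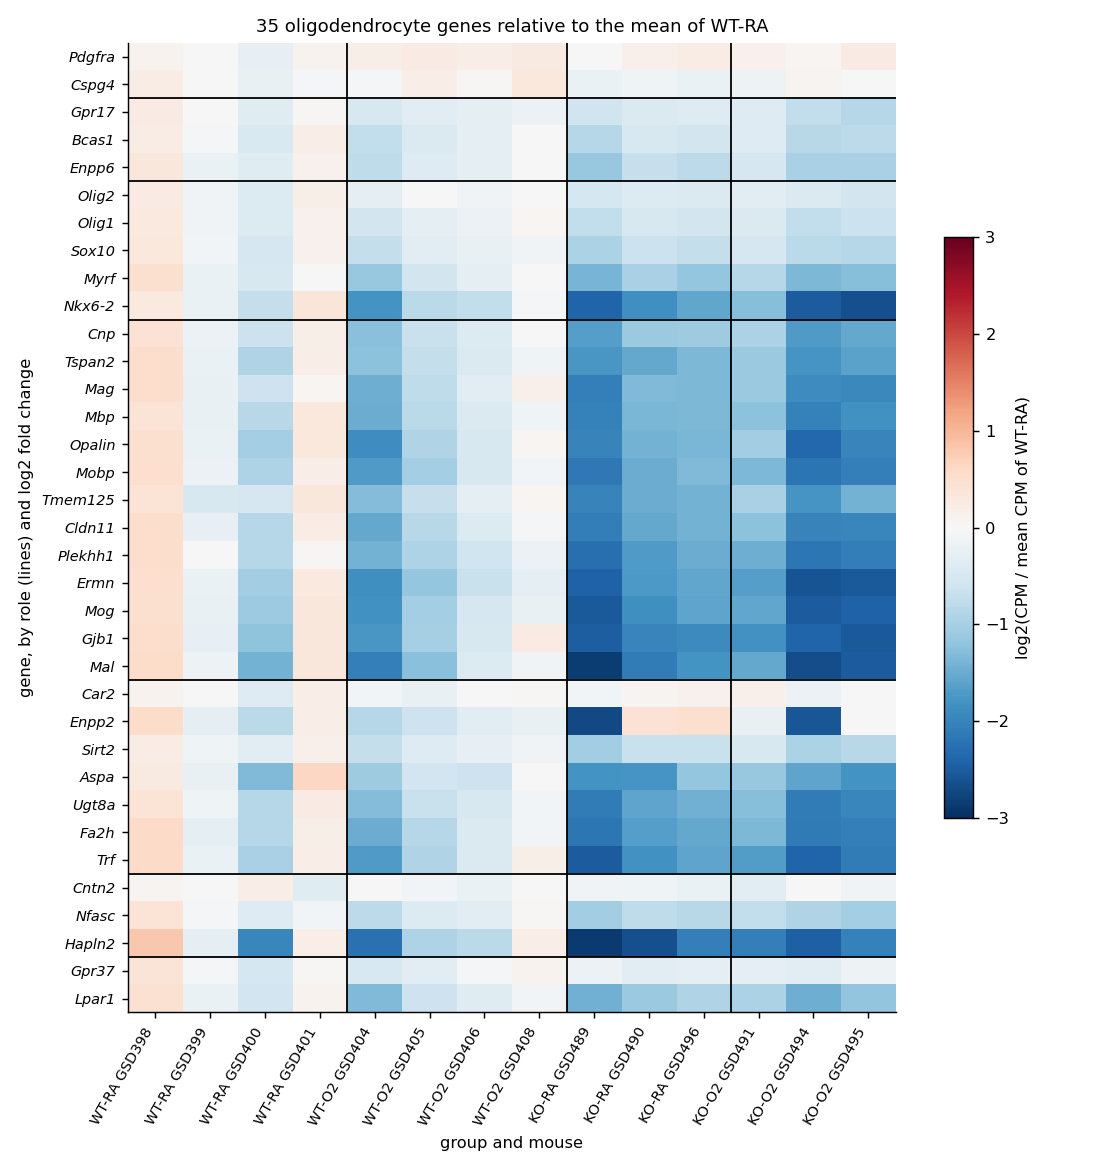
log2 ratio of each gene's CPM to its WT-RA mean (colour, blue for lower) for 35 genes (rows, by role) in 14 libraries (columns, by group and mouse). Among the KO columns blue is deep in Hapln2, Mal, Gjb1, Ermn, Mog, Nkx6-2 and Trf, and in Enpp2 for GSD489 and GSD494, while the rows of Pdgfra, Cspg4, Car2, Cntn2 and Gpr37 stay near white throughout.

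Of 7 genes of lipid synthesis and metabolism, 5 were called lower in KO-RA and 3 of them also in KO-O2. Under each exposure 6 of the 7 estimates were below 0. Ugt8a, whose enzyme makes the galactosylceramide of myelin, had 305, 208, 127 and 272 CPM in WT-RA and 92.4, 144, 163 and 217 in WT-O2. In KO mice Ugt8a was at 53.1, 75.8 and 84.2 in KO-RA and 94.1, 53.4 and 58.3 in KO-O2. Ugt8a changed by -1.68 ± 0.32 (SE, q = 0.00421) in room air and -1.17 ± 0.31 (SE, q = 0.0418) in hyperoxia. Fa2h, which hydroxylates the fatty acids of that lipid, had 184, 101, 68.3 and 139 CPM in WT-RA and 44, 68.3, 91.1 and 117 in WT-O2. In KO mice Fa2h was at 27.3, 38.9 and 42.5 in KO-RA and 48.4, 28.3 and 29.5 in KO-O2. The changes were -1.76 ± 0.35 (SE, q = 0.0057) and -1.18 ± 0.35 (SE, q = 0.0629). Trf, the iron carrier transferrin made by oligodendrocytes and by choroid plexus, had 223, 129.9, 76.5 and 171 CPM in WT-RA and 46.5, 80.8, 111 and 169 in WT-O2. In KO mice Trf was at 26.7, 42.6 and 50.2 in KO-RA and 47.1, 28.3 and 35 in KO-O2. Trf changed by -1.91 ± 0.41 (SE, q = 0.00861) and -1.47 ± 0.41 (SE, q = 0.0474). In each of the 3 genes the WT-RA libraries were all above the KO libraries. Aspa, which frees acetate from N-acetylaspartate, changed by -1.54 ± 0.37 (SE, q = 0.0174) although WT-RA mouse GSD400 at 3.89 CPM lay below KO-RA mouse GSD496 at 4.38 CPM. Sirt2, a deacetylase abundant in myelin, changed by -0.78 ± 0.17 (SE, q = 0.0084) in room air.

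Enpp2 and Car2 did not follow the other enzymes. Enpp2, the lysophospholipase D autotaxin, is made by oligodendrocytes and also by choroid plexus, and had 902, 503, 352 and 701 CPM in WT-RA and 339, 397, 486 and 524 in WT-O2. In KO mice Enpp2 was at 94.3, 835 and 865 in KO-RA and 525, 104 and 621 in KO-O2. KO-RA mouse GSD489 and KO-O2 mouse GSD494 were far below the rest, and the same 2 libraries held 46.1 and 119 CPM of 10 summed choroid plexus markers, against 947 to 3472 in the other 12 (Ttr, the leading one, ran from 26.7 to 3177 CPM in KO-RA and from 92 to 3317 in KO-O2). The log2 fold change of Enpp2 in KO-RA against WT-RA was -0.04 ± 0.60 (SE, q = 0.983), and the part of choroid plexus in it was not tested. Car2, a carbonic anhydrase of oligodendrocytes and some other cells, lay between 60.2 and 91.5 CPM in all libraries, with 0.05 ± 0.12 (SE, q = 0.86) in KO-RA against WT-RA.

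Among genes of the axon contact and the node, Hapln2, a link protein that holds the matrix around the node of Ranvier, had the lowest counts of all members and, in room air, the largest fold change. It had 9.165, 4.332, 1.343 and 5.918 CPM in WT-RA and 1.099, 2.724, 2.974 and 5.960 in WT-O2. In KO mice Hapln2 was at 0.706, 0.840 and 1.245 in KO-RA and 1.253, 0.954 and 1.275 in KO-O2. The lowest library held 19 of its reads, and the gene gave -2.47 ± 0.59 (SE, q = 0.0156) in room air and -1.46 ± 0.58 (SE, q = 0.173) in hyperoxia. WT-RA alone spread 6.83-fold, and WT-O2 mouse GSD404, at 1.10 CPM, stood within the KO range. In room air Nfasc, the neurofascin of nodes and paranodes, which neurons also make, changed by -0.88 ± 0.18 (SE, q = 0.00742). Cntn2, a contactin of the juxtaparanode also made by neurons, gave -0.15 ± 0.11 (SE, q = 0.485) there. Of the receptors, also in room air, Lpar1, which binds the lysophosphatidic acid that autotaxin makes, changed by -1.13 ± 0.27 (SE, q = 0.0147). Gpr37, an orphan receptor of maturing oligodendrocytes, gave -0.26 ± 0.16 (SE, q = 0.383).

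**Figure D4:**
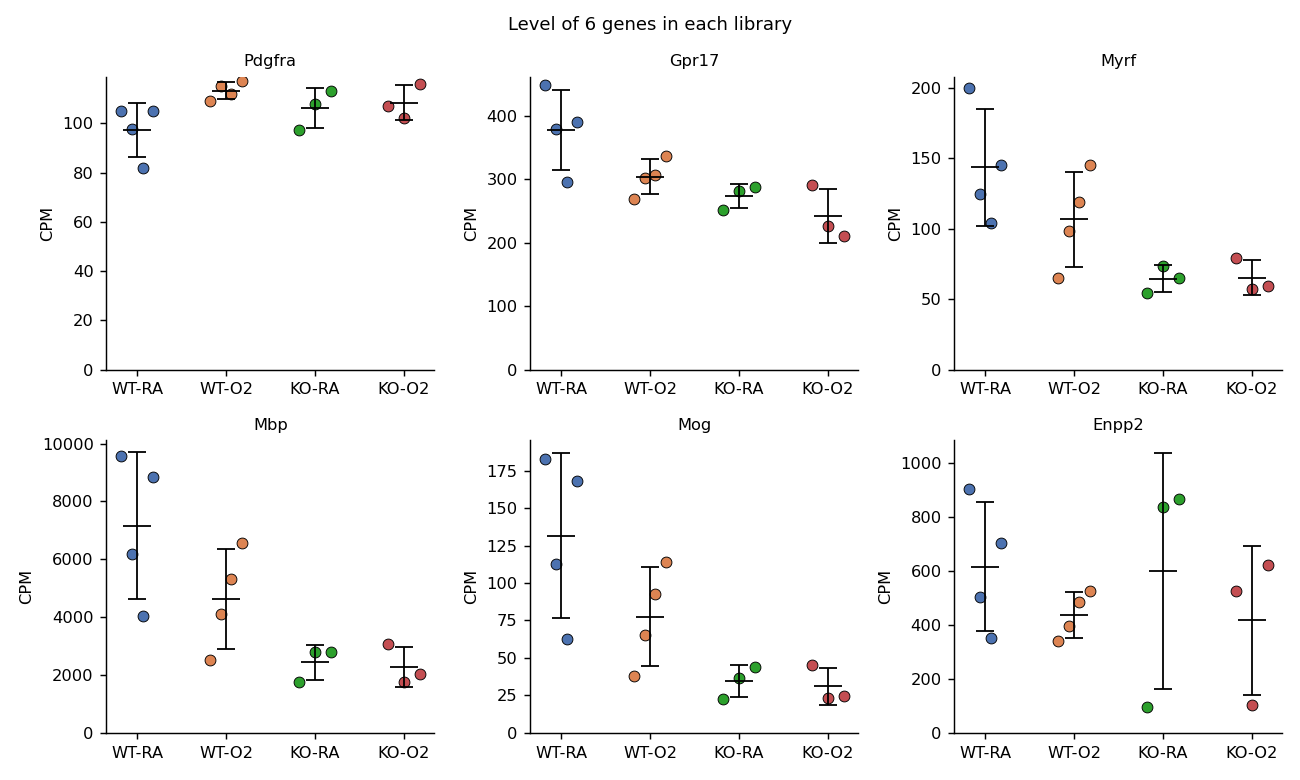
CPM (y axis, from 0) of Pdgfra, Gpr17, Myrf, Mbp, Mog and Enpp2 in each library by group (x axis); the points are libraries, and the bars give mean and SD. Pdgfra overlaps across genotypes, Myrf, Mbp and Mog are lower in KO-RA than in WT-RA with no overlap, and Enpp2 has 2 KO libraries at 94.3 and 104 CPM.

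Hyperoxia itself changed no member past the thresholds. In WT mice, 33 of 35 log2 fold changes (WT-O2 against WT-RA) were below 0 with a median of -0.51, and 0 genes were called by edgeR or by DESeq2, where 0.643% of all genes were called by edgeR. An unadjusted p below 0.05 was reached by 8 of 35 genes with either tool, against 12.2% of all genes by edgeR. Ermn gave -0.88 ± 0.34 (SE, q = 0.302), Mog -0.76 ± 0.35 (SE, q = 0.407) and Mbp -0.63 ± 0.30 (SE, q = 0.414), with overlapping libraries in all 3. Within the WT groups Mbp ran over 2.36-fold in WT-RA and 2.59-fold in WT-O2. The 20 mature genes had a median of -0.59, or -0.85 with GSD408 counted as WT-RA, again with 0 called. Leaving out 1 library moved this median to between -0.86 and -0.36, with -0.36 without WT-RA mouse GSD398 and -0.39 without WT-O2 mouse GSD404.

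In KO mice, the median log2 fold change of KO-O2 against KO-RA was -0.03 over the 35 genes. None was called by edgeR or DESeq2, none had an unadjusted p below 0.05 with either tool, and 0.012% of all genes were called. Mbp gave -0.10 ± 0.34 (SE, q = 0.997) and Myrf 0.02 ± 0.26 (SE, q = 0.997). The difference between the exposure effects in KO and in WT was tested as an interaction: 0 of 35 genes were called by either tool, 0 had an unadjusted p below 0.05 with either, and 0% of all genes were called by edgeR. Only 3 of the 35 interaction estimates were below 0, and their median was 0.44. For Mbp it was 0.54 ± 0.45 (SE, q = 1), a little above its own standard error. The 4 pairwise comparisons share libraries, so their values for a gene are not independent.

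Within each group the members moved up and down together from mouse to mouse. In WT-O2, mouse GSD408 was the highest of the 4 libraries for all 35 genes and GSD404 the lowest for 33. In WT-RA, GSD398 was the highest for 30 genes and GSD400 the lowest for 34. Mouse GSD489 was the lowest KO-RA library for 32 genes, and GSD491 was the highest KO-O2 library for 29. The spread was wider in Mog than in Olig1, a factor of the whole lineage, or in the early genes Enpp6, Bcas1 and Pdgfra. Mog ran over 2.93-fold in WT-RA and 3.02-fold in WT-O2, against 1.63-fold and 1.53-fold for Olig1. Enpp6 ran over 1.63-fold and 1.69-fold, Bcas1 over 1.59-fold and 1.68-fold, and Pdgfra over 1.28-fold and 1.08-fold. Because the genes of a library rise and fall as a group, 29 called genes are not 29 separate observations.

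Genes outside the list were read in the same way, and these lists too were chosen with earlier results of these data known. Of 36 other myelin genes, 29 were called lower in KO mice in room air (median -1.06 on the log2 scale). In hyperoxia 9 were called lower in KO mice (median -0.62), and none was called higher under either exposure. Over all genes tested, 6.7% were called lower in room air and 4.35% in hyperoxia. Cryab, the small heat shock protein crystallin, changed by -1.02 ± 0.19 (SE, q = 0.00344) in KO-RA, and it was the 1 gene of this list that was called lower under hyperoxia in WT mice, at -0.73 ± 0.17 (SE, q = 0.0894). Elovl1, which lengthens the fatty acids of myelin lipid, changed by -1.22 ± 0.23 (SE, q = 0.00376) in KO-RA. The smallest p in KO-O2 against WT-O2 belonged to Slc45a3, -1.53 ± 0.41 (SE, q = 0.0397), and Adamts4, -0.95 ± 0.28 (SE, q = 0.0593).

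Of 16 other precursor genes, 3 were called lower and 1 was called higher in KO-RA, with a median of -0.12. Under hyperoxia 0 were called lower and 1 was called higher. Over all genes tested, 10.4% were called in room air and 6.86% in hyperoxia. The higher gene in room air was Ptprz1, a receptor phosphatase of precursors and astrocytes, at 0.38 ± 0.10 (SE, q = 0.0339), and in hyperoxia it was Rlbp1, at 0.33 ± 0.09 (SE, q = 0.0466). In room air Tnr, a matrix protein, gave -0.26 ± 0.07 (SE, q = 0.0287) below the fold threshold, and Lhfpl3 was lower at -0.41 ± 0.14 (SE, q = 0.0756). Of 16 genes that supply cholesterol and other lipid, all 16 had log2 fold changes below 0 in KO-RA, of which 5 were called, and 2 were called lower in KO-O2. Lss, which closes the sterol ring, changed by -0.59 ± 0.09 (SE, q = 0.000866) in room air and -0.33 ± 0.09 (SE, q = 0.0399) in hyperoxia.

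Markers of hippocampal neurons and of regions next to the hippocampus moved with genotype, while most markers of other cell types were not called. Of 11 striatal neuron markers, 11 were lower in KO under each exposure (Drd1 -2.70 ± 0.28 (SE, q = 7.89e-05) in room air), their sum running from 418 to 966 CPM in WT libraries and from 167 to 277 in KO libraries. Of 11 thalamic markers, 7 were called lower in KO in room air and 6 in hyperoxia (Ramp3 -2.82 ± 0.40 (SE, q = 0.000717) in room air). Leaving out Tcf7l2, which oligodendrocytes also express, the thalamic markers summed to 158 to 795 CPM in WT and 192 to 213 in KO. Of 10 tested markers of hippocampal pyramidal and granule neurons, 9 were called higher and 1 lower in KO-RA, and 6 were called higher in KO-O2. The sum of the hippocampal markers ran from 689 to 1105 CPM in WT and from 1406 to 1736 in KO. Hippocampal markers such as Neurod6, at 163 to 391 CPM over all groups, were present in every library, while Ocm had 1 to 10 reads and was not tested, and the thalamic marker Gbx2 was at 0 in 1 library. Astrocyte markers were called higher for 2 of 10 under each exposure. In room air and hyperoxia in turn, interneuron markers were called lower for 3 of 7 and 1 of 7. Fibroblast markers were called higher for 1 of 7 and 0 of 7. None of the microglial, endothelial, pericyte and choroid plexus markers was called. In either direction, 10.4% of all genes tested were called in room air and 6.86% in hyperoxia.

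Within the WT groups the mature oligodendrocyte genes and the regional markers moved together in part. The WT-RA mouse with the highest mature sum, GSD398, also had the highest thalamic (795 CPM without Tcf7l2) and striatal (881 CPM) sums of its group, and GSD400 had the lowest of all 3. In WT-O2, GSD408 was highest for all 3 (609 CPM thalamic, 966 CPM striatal), and GSD404, lowest for the mature sum, had the lowest striatal sum of the WT libraries, 418 CPM. Across genotypes the order was not the same on the thalamic axis. WT-RA mouse GSD400 had the lowest thalamic sum of all 14 libraries, 158 CPM without Tcf7l2, below the 192 to 213 of the KO libraries, and a mature sum of 6682 CPM, above the 5133 of the highest KO library. On the other axes GSD400 had 618 CPM striatal, above the 167 to 277 of the KO libraries, and 946 CPM hippocampal, below their 1406 to 1736. Among KO libraries the thalamic sum varied by little while the mature sum ran from 2974 to 5133 CPM. The covariates of a further fit were not these sums but a thalamic and a striatal score. Each score was the mean of scaled log2 CPM over its markers, without Tcf7l2. The scores predicted genotype with an R squared of 0.904. This fit called 0 of 35 genes for genotype under either exposure and gave mature medians of 0.16 in room air and 0.74 in hyperoxia. With scores so close to genotype, genotype and the amount of neighbouring tissue cannot be told apart in these libraries.

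**Figure D5:**
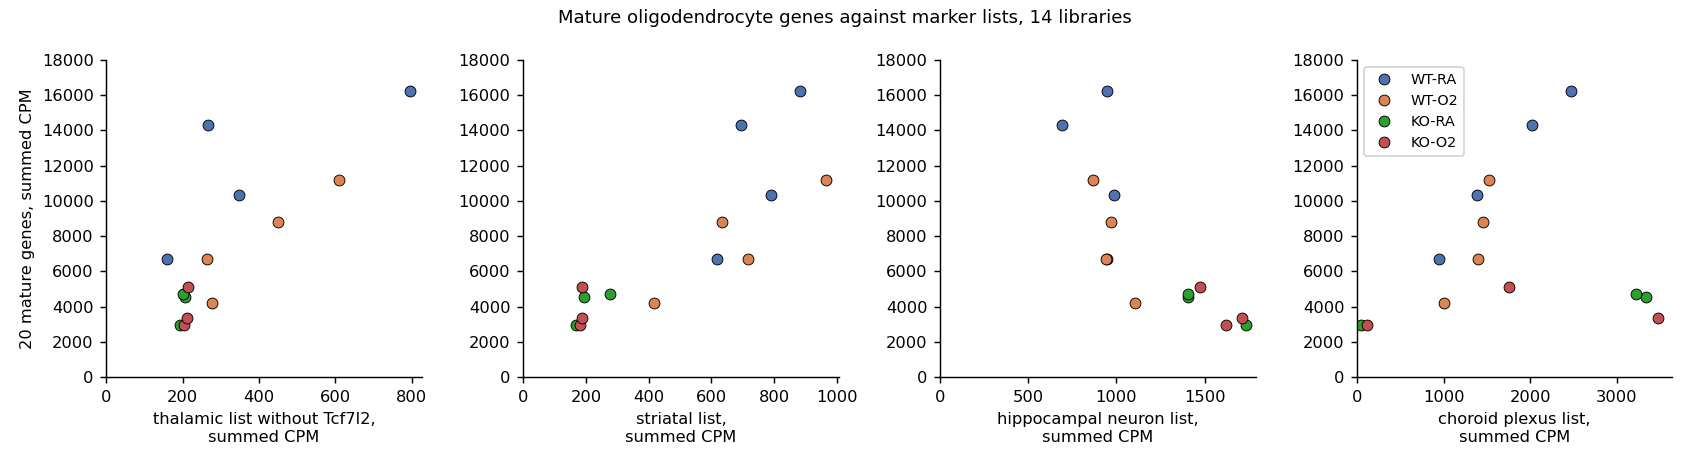
Summed CPM of the 20 mature genes (y axis) against the summed CPM of thalamic, striatal, hippocampal neuron and choroid plexus markers (x axes) in 14 libraries, coloured by group. KO libraries lie at 167 to 277 CPM on the striatal axis and 1406 to 1736 on the hippocampal axis, apart from all WT libraries, and WT-RA mouse GSD400 lies left of the KO libraries on the thalamic axis with a higher mature sum.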

How the data were processed

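Total RNA of the hippocampus was poly(A)-selected and sequenced as paired-end reads. The authors aligned the reads with Kallisto to mouse build GRCm39 and summed them to genes with tximport (versions, trimming and count scaling not given in the sources used here), and deposited estimated counts per gene, 1 column for each of 14 mice. No column was left out, and no 2 columns were identical. Gene symbols came from reference gene tables, which named 35825 of 36118 genes. The 35 members and all gene lists were chosen with earlier results of these data known.

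Estimated counts were rounded to whole numbers, genes with low counts were removed by filterByExpr (16637 kept), and libraries were scaled by TMM. The quasi-likelihood test of edgeR 4.0.16 in R 4.3.3 was fitted to all 14 libraries with 1 term per group, and the 4 pairwise contrasts and the interaction were tested with Benjamini-Hochberg q over all genes kept. The thresholds (fold 1.25, p 0.05, q 0.1) are those of the study, which used DESeq2. Standard errors are the log2 fold change divided by the root of the F statistic. Mice were grouped by title. Values in every library are given for the 12 called members with the largest change and for 14 members fixed by name, and from each other list the 2 genes with the smallest p and defining markers are named. The total per library, which sets the precision of counting, ran from 27272270 to 28257496, so depth differed little between groups. Alternatives were DESeq2 1.42.0, RLE and library-size scaling, no filter and a stricter one, only the groups compared, mouse GSD408 as WT-RA, stricter thresholds, leaving out each library, and, added after seeing the data, regional marker scores as covariates. The tests were also run on simulated counts in which each gene varied on its own. That simulation does not cover shifts shared by the genes of a library. Promoter windows were taken from RefSeq (GRCm38.p6), which held 25 of the 35 members, and coordinates of the files' own build are not used here. Some genes of the comparison lists enter the counts but are not reported by name here.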

Additional observations from a re-analysis of the deposited data

How the results depend on the processing

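In room air, 28 or 29 members were called with DESeq2, other scaling, other filters, only the groups compared or GSD408 as WT-RA, and 24 to 30 when a library was left out, the lowest without KO-RA mouse GSD489. In hyperoxia the main count of 12 became 16 with DESeq2, 18 with no filter, 19 with only the groups compared, 4 with q below 0.05, 0 with GSD408 as WT-RA, and 0 to 26 when a library was left out, with none of the 12 called every time; the cause was not tested. For exposure each of these gave 0, as did leaving out a library; the interaction also gave 0 under all of them but the fit to only the groups compared, which does not apply to it. The stage medians kept their sign in the genotype comparisons under all of these: leaving out a library, the mature median ran from -1.83 to -1.43 in room air and from -1.42 to -0.82 in hyperoxia, and the early median from -0.56 to -0.37 and from -0.46 to -0.16. For exposure the mature median ran from -0.86 to -0.36 in WT mice and from -0.35 to 0.06 in KO mice. With thalamic and striatal scores as covariates, members called became 3 for WT-O2 against WT-RA (Ermn, Plekhh1 and Lpar1, all lower), 0 for KO-RA against WT-RA and 0 for KO-O2 against WT-O2, and the genotype medians became 0.23 in room air and 0.28 in hyperoxia for early genes and 0.16 and 0.74 for mature genes. Under these covariates the log2 fold changes of called genes that turned sign were, in room air, Mbp 0.10, Mog 0.13, Mag 0.36, Mobp 0.40, Cnp 0.27, Cldn11 0.19, Opalin 0.60, Myrf 0.072, Olig1 0.098, Gjb1 0.076, Ermn 0.088, Aspa 0.038, Mal 0.26, Enpp6 0.057, Bcas1 0.23, Gpr17 0.050, Fa2h 0.002, Nkx6-2 0.33, Trf 0.38, Hapln2 0.67, Sirt2 0.027, Nfasc 0.086 and Lpar1 0.42, and, in hyperoxia, Mbp 0.72, Mog 0.86, Mag 0.89, Cldn11 0.84, Ugt8a 0.54, Gjb1 0.67, Ermn 0.75, Tspan2 0.57, Fa2h 0.66, Nkx6-2 1.11, Trf 0.97 and Plekhh1 0.59. None of these was called, and since the scores nearly determine genotype, this fit leaves little to estimate genotype from. No paired analysis was possible because the labels give no replicate numbers that groups share. With 3 or 4 mice per group the interaction had standard errors near 0.45 (log2) for Mbp, which limits what it can show.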
